A study of Saccharomyces cerevisiae with 12 samples.

Results

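Flocculins are the cell wall proteins that let budding yeast cells stick to each other and to surfaces. FLO1, FLO5, FLO9, FLO10 and FLO11 encode them, and FLO8 encodes a transcription factor that activates several of these genes. The probes of these 6 genes were taken from the 6224 genes of an expression array by the reading frame that the array files assign. The measured values of a probe did not enter that step, but the genes were chosen with earlier results of these data known. Each gene has 1 probe, spotted 2 times on every array: FLO1 is YAR050W, FLO5 YHR211W, FLO9 YAL063C, FLO10 YKR102W, FLO11 YIR019C and FLO8 YER109C. FLO1, FLO5 and FLO9 are similar copies whose transcripts can share signal, which leaves the value of each of these copies uncertain.

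Levels were measured on 12 single-colour arrays of the Saccharomyces cerevisiae strain L40, a reporter strain built for two-hybrid assays. Wild type L40 without an intrabody was hybridised to 4 arrays. Another 4 arrays carried RNA of L40 with a stably expressed intrabody, the single-chain fragment scFv-112A, which binds acetylated HIV-1 integrase and serves as the control intrabody, and 4 carried RNA of L40 stably expressing scFv-58F, which binds histone H3 acetylated at K9. Intrabodies are antibody fragments that act within the cell that makes them. The labels' protocols state that cultures of the intrabody strains were grown from a single colony in medium without leucine and those of the wild type in rich YPD medium, and the final overnight culture of all 3 groups was in YPD. No label says that the 4 replicates of a group were separate cultures, so p-values measure the spread between these arrays, which may be technical.

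As background, adhesion genes of this family are mostly silent in laboratory yeast and are switched on by nutrient signals. The cAMP-dependent protein kinase A acts through Flo8 and removes the repressor Sfl1, a filamentation MAP kinase cascade acts through Ste12 and Tec1, and the Snf1 kinase relieves repression by Nrg1 and Nrg2 when glucose runs low. The genes FLO1, FLO5, FLO9 and FLO10 lie near chromosome ends and are repressed by Tup1 and Cyc8, while FLO11 has a long promoter on which many of these factors meet. The reference strain S288C carries a nonsense mutation in FLO8, and the R64 annotation lists the gene as a pseudogene; the FLO8 allele of L40 is not given in the sources used here.

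The 4 arrays of a group share 1 slide and 1 scan, so slide and group cannot be told apart in any comparison. LEU2, the marker behind growth without leucine, was 4.64 ± 0.08 (log2 difference and SE) higher in scFv-58F and 4.36 ± 0.08 higher in scFv-112A than in wild type (limma, adjusted p = 3.3e-12 and 6.94e-12), which separates intrabody from wild type arrays. On each array 87.0% to 94.7% of gene spots were well above background, and the replicates of a group correlated across genes with r of at least 0.9925. The median local background was 46 to 50 on scFv-112A replicates 1 to 3 and 28 to 37.5 on the other 9 arrays. The 75th percentile of signal was 9324 on wild type replicate 1 and 4701 to 5991 on the others.

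Relative to wild type, both intrabody groups had more FLO1 and FLO9 transcript and less FLO8 and FLO10 transcript. FLO11 was lower in scFv-58F than in wild type, and no difference of FLO5 passed the test. All changes were small: the largest was the 1.53-fold lower level of FLO10 in scFv-58F, and no gene of the 6 reached a factor of 2 in any comparison. Levels below are log2 of the background-subtracted Cy3 signal minus the 75th percentile of the array, differences are on the same log2 scale with the SE of the fit, and a gene is called at a Benjamini-Hochberg adjusted p under 0.05 over the 5827 genes tested with limma (n = 4 arrays per group). A level may be compared between arrays for 1 gene and not between genes, since probes differ in brightness.

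**Figure D1:**
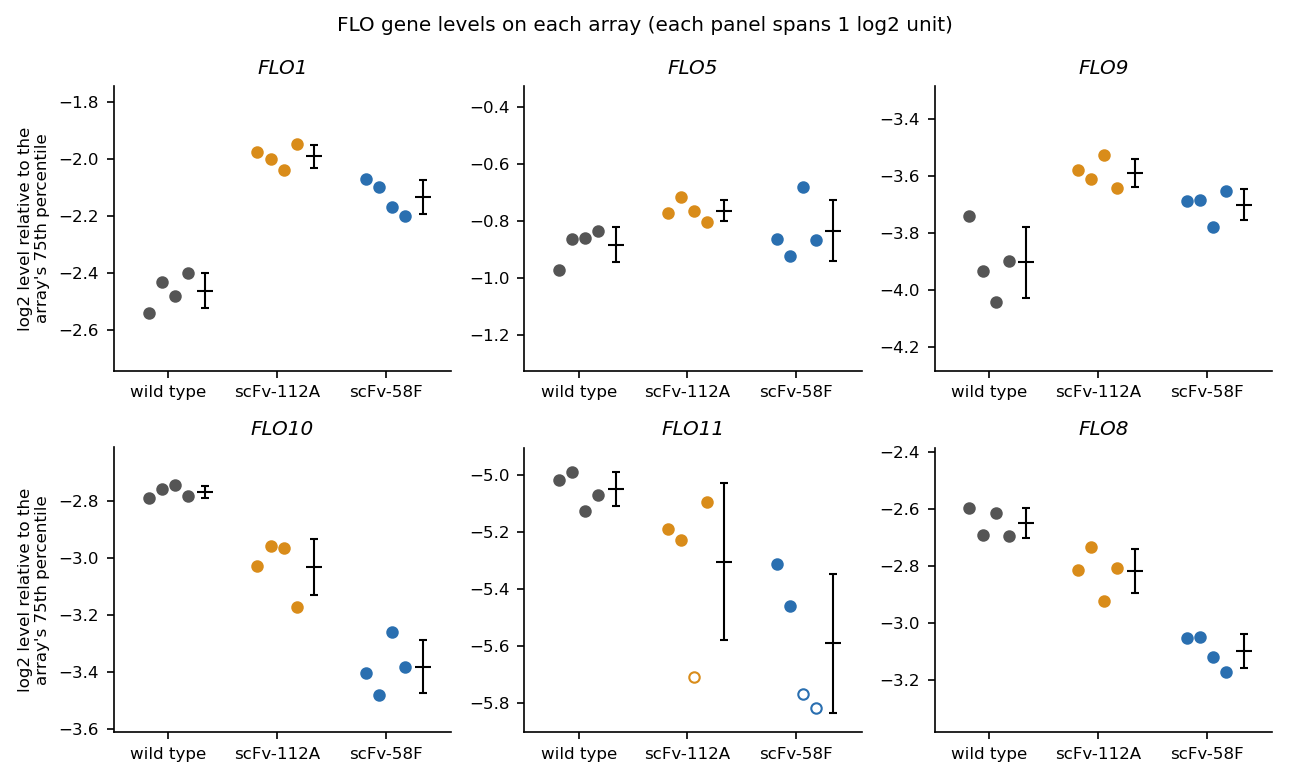
Log2 level of each FLO gene relative to the 75th percentile of the array (vertical axis, 1 log2 unit per panel) on the 4 arrays of each group, in replicate order from left to right; black bars are the mean and SD of 4 arrays, and open points are arrays on which no spot was well above background. The wild type mean is the lowest of the 3 groups for FLO1, FLO5 and FLO9 and the highest for FLO8, FLO10 and FLO11. No FLO5 difference was called, and FLO11 was called only for scFv-58F with wild type. Open points occur in FLO11, on 1 scFv-112A array and 2 scFv-58F arrays.

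FLO1 encodes the dominant flocculin of cell-to-cell flocculation, a lectin that binds mannose chains on neighbouring cells. Its level on wild type replicates 1 to 4 was -2.54, -2.43, -2.48 and -2.40. The scFv-112A arrays read -1.98, -2.0, -2.04 and -1.95, and the scFv-58F arrays -2.07, -2.10, -2.17 and -2.20. Each of the 8 intrabody arrays exceeded every wild type array, and all scFv-58F arrays lay below all scFv-112A arrays.

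The FLO1 level was 0.47 ± 0.05 higher in scFv-112A than in wild type, or 1.39-fold (limma, adjusted p = 1.84e-05), and 0.33 ± 0.05 higher in scFv-58F, or 1.26-fold (adjusted p = 8.63e-05). Both calls held on leaving out any 1 array. FLO1 was lower in scFv-58F than in scFv-112A (-0.14 ± 0.05, limma adjusted p = 0.0341). That call was lost without scFv-112A replicate 1 (0.0801), 2 (0.0506) or 4 (0.0835), and without scFv-58F replicate 2 (0.0519), 3 (0.0885) or 4 (0.0886). It was also lost after quantile scaling (0.0594) and with normexp background (0.104). The normexp setting starts from raw median spot and local background signals in place of the processed signal, and adds an offset of 50. It therefore changes more than the background step, and the parts were not tested apart.

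FLO9, a flocculin gene similar to FLO1, showed the same order of group means. Wild type arrays read -3.74, -3.93, -4.04 and -3.90, with replicate 1 the highest. The scFv-112A arrays read -3.58, -3.61, -3.53 and -3.64, and the scFv-58F arrays -3.69, -3.68, -3.78 and -3.66. No scFv-112A array overlapped the other 2 groups, while scFv-58F replicate 3 lay below wild type replicate 1.

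FLO9 was 0.31 ± 0.06 higher in scFv-112A than in wild type, or 1.24-fold (limma, adjusted p = 0.0015), and 0.20 ± 0.06 higher in scFv-58F, or 1.15-fold (adjusted p = 0.0123). The difference between the intrabody groups was -0.11 ± 0.06 and was not called (95% interval -0.24 to 0.021, adjusted p = 0.182), although it was called with normexp background (-0.16, adjusted p = 0.0351).

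FLO5, the third of the similar copies and also a mannose-binding flocculin gene, had nearly level means. The wild type arrays read -0.97, -0.86, -0.86 and -0.83, the scFv-112A arrays -0.77, -0.71, -0.76 and -0.80, and the scFv-58F arrays -0.86, -0.92, -0.68 and -0.87. Replicate 3 of scFv-58F was the highest of all 12, the scFv-58F arrays overlapped both other groups, and no wild type array reached the lowest scFv-112A array.

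The FLO5 level differed by 0.12 ± 0.06 between scFv-112A and wild type (95% interval -0.0026 to 0.24, limma adjusted p = 0.0968), by 0.049 ± 0.056 between scFv-58F and wild type (-0.072 to 0.17, adjusted p = 0.461) and by -0.069 ± 0.056 between the intrabody groups (-0.19 to 0.052, adjusted p = 0.362). None was called, and the intervals leave room for a change of up to 0.24. The difference between scFv-112A and wild type was called when scFv-58F replicate 3 was left out (adjusted p = 0.0488) and with normexp background (0.0289).

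FLO10 encodes a flocculin that acts mainly when it is overproduced and supports both flocculation and adhesion. Its wild type arrays were tight, at -2.79, -2.76, -2.74 and -2.78. The scFv-112A arrays read -3.03, -2.96, -2.97 and -3.17, and the scFv-58F arrays -3.40, -3.48, -3.26 and -3.38. The 3 groups did not overlap: wild type was highest and scFv-58F lowest on every array.

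FLO10 fell by 0.61 ± 0.06 in scFv-58F relative to wild type (limma, adjusted p = 4.34e-06) and by 0.35 ± 0.06 relative to scFv-112A, or 1.27-fold (adjusted p = 0.00125). These calls held on leaving out any 1 array. In scFv-112A it was 1.2-fold lower than in wild type (-0.26 ± 0.06, adjusted p = 0.00335). With normexp background the last difference shrank to -0.14 and was not called (adjusted p = 0.0502).

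FLO8, which encodes the activator, changed in the same order as FLO10. Wild type arrays read -2.59, -2.69, -2.61 and -2.70, scFv-112A arrays -2.81, -2.73, -2.92 and -2.81, and scFv-58F arrays -3.05, -3.05, -3.12 and -3.17. Again no group overlapped another.

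FLO8 was 1.37-fold lower in scFv-58F than in wild type (-0.45 ± 0.05, limma adjusted p = 1.55e-05) and 1.21-fold lower than in scFv-112A (-0.28 ± 0.05, adjusted p = 0.00199). It was 1.13-fold lower in scFv-112A than in wild type (-0.17 ± 0.05, adjusted p = 0.0162). All 3 calls held under each of the 23 alternatives tried, with adjusted p up to 0.0472 for the last one. The transcript measured is that of the locus; whether it encodes a working activator in L40 cannot be read from these arrays.

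FLO11, also called MUC1, encodes the mucin-like protein needed for invasive growth, biofilm mats and attachment to plastic. It was the only one of the 6 genes not well above background on every array, with a raw spot signal 3.62 to 9.2 times the local background. At least 1 spot was well above background on 4 wild type arrays, on 3 scFv-112A arrays and on 2 scFv-58F arrays. The wild type arrays read -5.02, -4.99, -5.13 and -5.07. The scFv-112A arrays read -5.19, -5.23, -5.71 and -5.09, where replicate 3 was not well above background. The scFv-58F arrays read -5.31, -5.46, -5.77 and -5.82, where replicates 3 and 4 were not. All scFv-58F arrays lay below all wild type arrays, and the scFv-112A arrays overlapped both.

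FLO11 was 1.45-fold lower in scFv-58F than in wild type (-0.54 ± 0.14, limma adjusted p = 0.00466), a call that held on leaving out any 1 array, with differences from -0.63 to -0.46. With normexp background the difference was -0.20 and still called (adjusted p = 0.0158). The offset of 50 in that setting is large beside the FLO11 processed signals, 86.2 to 289 over the arrays. Between the intrabody groups FLO11 differed by -0.29 ± 0.14 (95% interval -0.58 to 0.012, adjusted p = 0.131). That difference was called without scFv-112A replicate 3 (-0.42, adjusted p = 0.0161) and with normexp background (-0.32, adjusted p = 0.00272). For scFv-112A with wild type the difference was -0.25 ± 0.14 and not called (-0.55 to 0.044, adjusted p = 0.143), and with normexp background it had the opposite sign (0.12, adjusted p = 0.129). The local background at the FLO11 spots was 46.5 to 48.25 on scFv-112A replicates 1 to 3 and 26.5 to 34.5 on the other arrays; its part in the result was not tested.

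**Figure D2:**
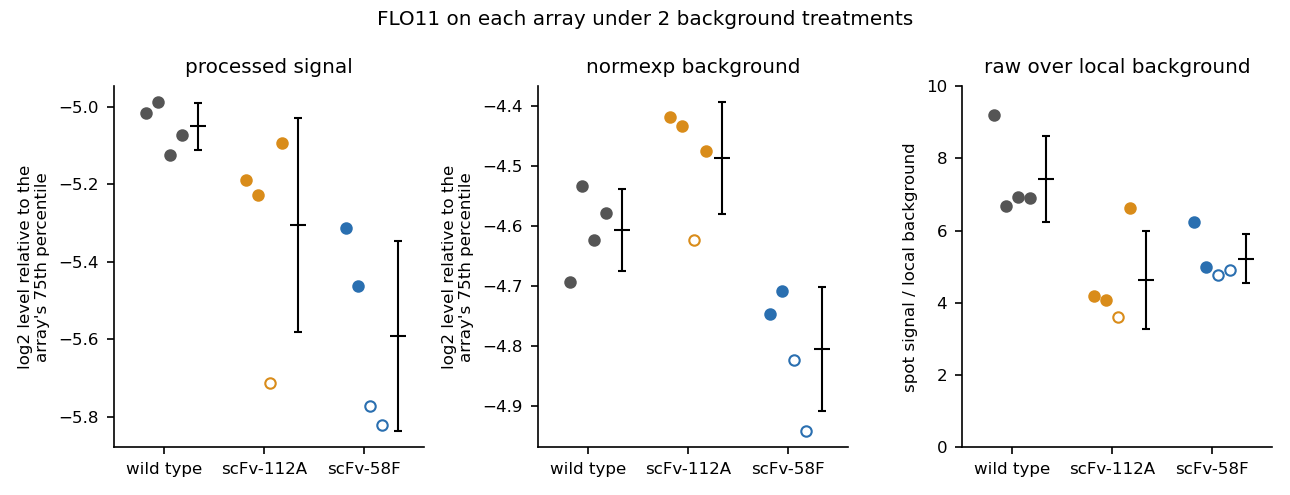
FLO11 on each array as the log2 level from the processed signal (left), the log2 level after normexp background correction (middle) and the ratio of raw spot signal to local background (right), by group; black bars are the mean and SD of 4 arrays, and open points were not well above background. The scFv-58F arrays are low on both log2 scales, while the scFv-112A arrays lie mostly below wild type on the left and mostly above it in the middle.

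Of the 6 genes, 5 were called for scFv-58F with wild type, 2 higher and 3 lower, where 62.2% of all tested genes were called, 31.2% higher and 31% lower. For scFv-112A with wild type 4 were called, 2 higher and 2 lower, beside 48% of all genes, 22.8% higher and 25.2% lower. For scFv-58F with scFv-112A 3 were called, all lower, beside 32.1% of all genes, 15.8% higher and 16.3% lower. With 6 genes, 1 call more or less moves the share by 16.7 percentage points, so these shares are not set apart from the background. The 2 comparisons with wild type share its 4 arrays and are not independent.

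The arrays of the 2 groups did not overlap for 4 of 6 genes in scFv-58F with wild type (58% of all genes), for 5 of 6 in scFv-112A with wild type (39.6%) and for 4 of 6 between the intrabody groups (34.4%). The median difference of the 6 genes was -0.20, -0.026 and -0.21 in these comparisons, against 0.0028, -0.0046 and -0.0037 over all genes. Ranked by size, the FLO10 difference between scFv-58F and wild type had 13.8% of the tested genes above it, and the FLO1 difference between scFv-112A and wild type had 11.8%.

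**Figure D3:**
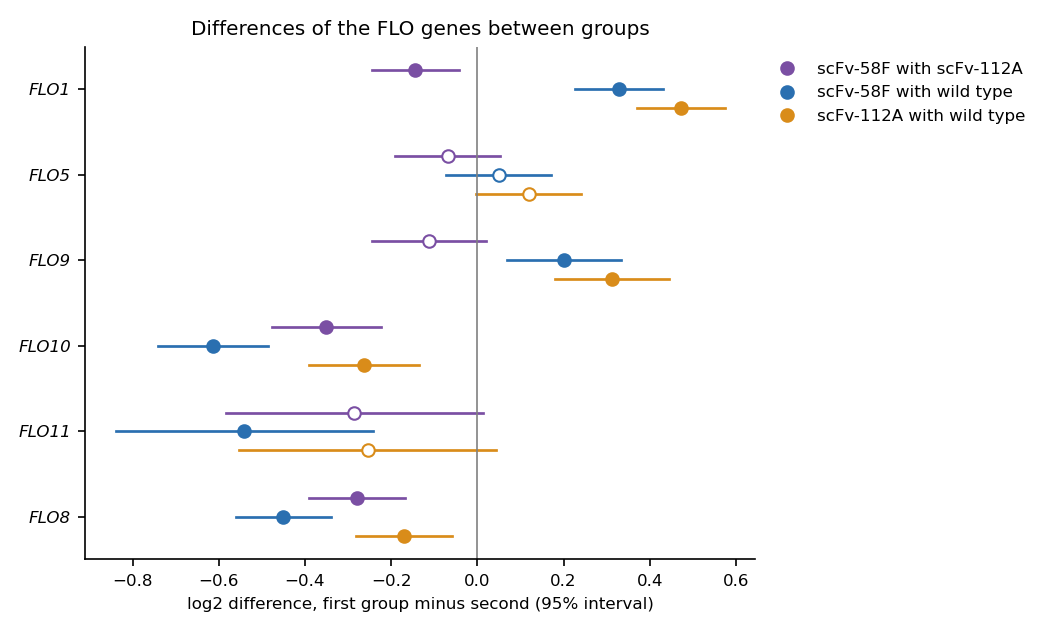
Log2 difference of each FLO gene, first group minus second (horizontal axis, with the 95% interval of the limma fit), for the 3 comparisons; filled points are called at an adjusted p under 0.05 and open points are not. FLO1 and FLO9 lie to the right of 0 in both comparisons with wild type, FLO8 and FLO10 to the left in all 3, and all FLO5 intervals include 0.

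Ratios between 2 of the genes on the same array do not depend on the percentile or median subtracted from that array. Quantile or loess scaling and another background treatment can move them. All 15 pairs were compared in the 3 comparisons, 45 tests in all, with a 2-sided exact permutation test over arrays, a test chosen after the values were seen. The smallest p that 4 against 4 arrays can give is 0.0286, which 22 tests reached, and the adjusted p over 45 tests was then 0.0584, so no ratio passed after adjustment. The ratio of FLO1 to FLO10 was 0.94 higher (log2) in scFv-58F than in wild type and 0.73 higher in scFv-112A, with no overlap of arrays and exact p = 0.0286 in both. The ratio of FLO1 to FLO5 was 0.28 and 0.35 higher in the same comparisons (exact p = 0.0286 in both). The ratio of FLO1 to FLO9 differed by 0.13 (exact p = 0.171) and 0.16 (exact p = 0.114). FLO8 to FLO10 differed by 0.16 (exact p = 0.0571) and 0.092 (exact p = 0.286).

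The 2 spots of a probe on 1 array gave a measure of the error within an array. Their median difference over 12 arrays was 0.050 (log2) for FLO1, 0.035 for FLO5, 0.079 for FLO8, 0.15 for FLO9, 0.096 for FLO10 and 0.15 for FLO11. The largest single difference was 0.41, in FLO9.

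Genes whose pattern over the 12 arrays was most like that of a FLO gene were found by the root mean square difference of log2 levels, each centred on its own mean. For FLO1 these were MMR1, a mitochondrial inheritance gene, CAK1, a kinase of cyclin-dependent kinases, and the seripauperin gene PAU11, at 0.049, 0.051 and 0.059 where the median over genes was 0.26. For FLO8 they were SLD3 (0.048), of replication initiation, MNL1 (0.051) and CYS4 (0.055), of cysteine synthesis, with a median of 0.25. For FLO10 they were IPI3 (0.077), RGP1 (0.078) and IBA57 (0.080), with a median of 0.30. For FLO9 they were MSC7 (0.051), CDC5 (0.054) and YBP2 (0.055), and for FLO5 PIG2 (0.042), FMP41 (0.052) and PYK2 (0.053). For FLO11 they were YCR043C (0.097), RTG1 (0.11) and RTT109 (0.12), which encodes an acetyltransferase of histone H3. Among the FLO genes themselves the closest pairs were FLO8 with FLO10 (0.12) and FLO1 with FLO9 (0.12), and the most distant was FLO1 with FLO10 (0.42).

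Known regulators of FLO genes were listed in 5 groups with 50 genes, all of them tested; the lists were chosen with earlier results of these data known. For scFv-58F with wild type 16 were higher and 16 lower, 64% of them, beside 62.2% of all genes. For scFv-112A with wild type 8 were higher and 16 lower (48%, beside 48%), and between the intrabody groups 14 were higher and 8 lower in scFv-58F (44%, beside 32.1%). Their median differences were -0.046, -0.055 and 0.053. Over the 23 alternatives the last comparison gave 7 to 15 higher and 6 to 10 lower.

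In the cAMP and protein kinase A branch, 2 of 14 genes were higher and 4 lower in scFv-58F than in wild type (median -0.053), beside 62.2% of all genes called. PDE2, the high-affinity cAMP phosphodiesterase that lowers kinase activity, fell by 1.28 ± 0.22 (limma, adjusted p = 0.000331). IRA2, which switches Ras off, changed by -0.79 ± 0.05, RAS1 by -0.78 ± 0.15 and PDE1, the low-affinity phosphodiesterase, by 0.61 ± 0.07. The other called genes, named after their values were seen, were IRA1, the paralogue of IRA2 with the same role, which was higher (0.30 ± 0.08, limma adjusted p = 0.00534), and TPK2, the kinase subunit that acts on Flo8 and Sfl1, which was lower (-0.27 ± 0.05, limma adjusted p = 0.000426).

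In scFv-112A 2 of the 14 were higher and 5 lower than in wild type (median -0.049), beside 48% of all genes called, with PDE2 (-0.63 ± 0.22), IRA2 (-0.56 ± 0.05), RAS1 (-0.47 ± 0.15) and TPK2 (-0.24 ± 0.05) among the lower ones. Between the intrabody groups 1 of 14 was higher in scFv-58F, PDE1 (0.42 ± 0.07), and 3 were lower (median -0.029, beside 32.1% of all genes called), IRA2 (-0.23 ± 0.05), the glucose receptor gene GPR1 (-0.19 ± 0.04) and PDE2 (-0.65 ± 0.22). The IRA2 call was lost with normexp background (-0.090, adjusted p = 0.271).

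In the filamentation MAP kinase branch 5 of 13 genes were higher and 6 lower in scFv-58F than in wild type (median -0.17), beside 62.2% of all genes called. The 4 largest changes were lower levels of TEC1 (-0.43 ± 0.06), the transcription factor specific to this branch, the sensor gene MSB2 (-0.37 ± 0.07), STE12 (-0.37 ± 0.08) and the kinase gene STE11 (-0.30 ± 0.05). The other lower genes, named after their values were seen, were SHO1 (-0.27) and DIG2 (-0.24). The 5 higher genes, named after their values were seen, were OPY2 (0.28 ± 0.08), the kinase gene STE20 (0.26 ± 0.06), STE50 (0.24 ± 0.06), DIG1 (0.15 ± 0.05), which encodes an inhibitor of Ste12, and CDC42 (0.14 ± 0.04); with normexp background STE50 (adjusted p = 0.127) and DIG1 (0.112) were not called. In scFv-112A 0 of 13 were higher and 5 lower (median -0.090, beside 48% of all genes called), led by TEC1 (-0.40 ± 0.06), MSB2 (-0.39 ± 0.07) and the sensor gene SHO1 (-0.28 ± 0.06). Between the intrabody groups 4 were higher in scFv-58F and 2 lower (median 0.019, beside 32.1% of all genes called), with STE11 (-0.37 ± 0.05) and CDC42 (0.27 ± 0.04) as the largest. DIG2, the other lower gene, differed by -0.26, which was not called with normexp background (-0.16, limma adjusted p = 0.0519).

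Of 7 further activators, 4 were higher and 3 lower in scFv-58F than in wild type (median 0.15, beside 62.2% of all genes called). PHD1, which promotes pseudohyphal growth, was 0.58 ± 0.07 higher, ASH1 0.24 ± 0.08, RIM101 0.19 ± 0.07 and MSS11, a partner of Flo8, 0.15 ± 0.06. Lower were MGA1 (-0.46 ± 0.07), RME1 (-0.40 ± 0.06) and MSN1 (-0.16 ± 0.06). In scFv-112A 1 was higher, PHD1 (0.36 ± 0.07), and 2 lower (median 0.018, beside 48% of all genes called), RME1 (-0.62 ± 0.06) and MSN1 (-0.17 ± 0.06). MSS11, PHD1 and RME1 were higher in scFv-58F than in scFv-112A by 0.20, 0.21 and 0.23. MGA1 was lower (-0.48 ± 0.07, median of the 7 genes 0.13), beside 32.1% of all genes called.

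Of 9 repressors, 4 were higher and 3 lower in scFv-58F than in wild type (median 0.17, beside 62.2% of all genes called). In scFv-112A 4 were higher and 3 lower (median -0.043, beside 48% of all genes called). NRG2 rose by 1.08 ± 0.16 in scFv-58F (limma, adjusted p = 0.000134) and by 0.54 ± 0.16 in scFv-112A (adjusted p = 0.0174). NRG1 was 0.29 ± 0.07 and 0.22 ± 0.07 higher, HST2 0.41 ± 0.10 and 0.45 ± 0.10, and HDA1, a histone H3 and H2B deacetylase gene, 0.37 ± 0.06 and 0.20 ± 0.06.

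SFL1, the repressor that protein kinase A removes, was lower than in wild type in scFv-58F (-0.68 ± 0.09, limma adjusted p = 3.75e-05) and in scFv-112A (-0.25 ± 0.09), the second not called with normexp background (-0.11, adjusted p = 0.229). SOK2 was lower in both (-0.45 ± 0.09 and -0.43 ± 0.09). HST1 was lower in scFv-58F (-0.30 ± 0.06) and CYC8 in scFv-112A (-0.22 ± 0.04), while TUP1 differed from wild type by 0.17 ± 0.07 and -0.043 ± 0.070 with no call. The TUP1 difference between scFv-58F and wild type was called in 10 of 23 alternatives. Compared with scFv-112A, 4 of 9 were higher in scFv-58F (NRG2, TUP1, CYC8 and HDA1, by 0.54, 0.21, 0.18 and 0.17). Lower were 2, SFL1 (-0.43) and HST1 (-0.18), with a median of 0.075 over the list, beside 32.1% of all genes called.

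In the Snf1 branch 1 of 7 genes was called for scFv-58F with wild type, 2 for scFv-112A with wild type and 2 between the intrabody groups, beside 62.2%, 48% and 32.1% of all genes. MIG1, a glucose repressor gene, was higher in scFv-58F than in wild type (0.24 ± 0.07, median of the list -0.0039). In scFv-112A REG1 was higher (0.23 ± 0.06, not called with normexp background, adjusted p = 0.164) and GAL83, a subunit of the Snf1 kinase, lower (-0.30 ± 0.06, median -0.11). Between the intrabody groups GAL83 (0.25 ± 0.06) and MIG1 (0.29 ± 0.07) were higher in scFv-58F (median 0.10), and SNF1 itself differed from wild type by -0.0039 ± 0.0578 in scFv-58F and by -0.11 ± 0.06 in scFv-112A with no call.

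Several calls of regulators, and that of SWI4, the neighbour of FLO8 described further on, depended on 1 array, and the arrays whose omission ended a call were as follows, with the number of 23 alternatives that kept it. For scFv-58F with wild type, the MSS11 call was lost without scFv-112A replicate 1, scFv-58F replicate 1, 2 or 3 or wild type replicate 2 or 4 (p of 0.0538 to 0.122 after adjustment) and held in 12 alternatives. The MSN1 call did not hold without scFv-58F replicate 1 or 3 or wild type replicate 2, 3 or 4 (p of 0.0548 to 0.0809 after adjustment) and held in 17 alternatives. The ASH1 call was not made without scFv-58F replicate 4 or wild type replicate 4 (p of 0.0522 to 0.0636 after adjustment) and held in 21 alternatives. The RIM101 call was lost without scFv-112A replicate 1, 2, 3 or 4, scFv-58F replicate 1, 2 or 3 or wild type replicate 2, 3 or 4 (p of 0.0519 to 0.134 after adjustment) and held in 8 alternatives. For scFv-112A with wild type, the PDE2 call did not hold without scFv-112A replicate 1 or 4 or wild type replicate 1 or 3 (p of 0.0651 to 0.0929 after adjustment) and held in 18 alternatives. The RAS1 call was not made without scFv-112A replicate 1 or 2 or wild type replicate 1 or 4 (p of 0.0551 to 0.0683 after adjustment) and held in 18 alternatives. The MSN1 call was lost without scFv-112A replicate 1 or 3 or wild type replicate 2, 3 or 4 (p of 0.0608 to 0.0804 after adjustment) and held in 17 alternatives. The NRG1 call did not hold without scFv-112A replicate 1, 2 or 3 or wild type replicate 1 (p of 0.0511 to 0.0822 after adjustment) and held in 18 alternatives. The SFL1 call was not made without scFv-112A replicate 2 or 3 or wild type replicate 2 or 4 (p of 0.0538 to 0.0877 after adjustment) and held in 16 alternatives. The SWI4 call was lost without scFv-112A replicate 2 or 4 or wild type replicate 1, 3 or 4 (p of 0.0521 to 0.0927 after adjustment) and held in 14 alternatives. Counted above but not named, the STE7 call (-0.16) was lost without scFv-112A replicate 1, 3 or 4 or wild type replicate 1 or 3. It held in 14 alternatives, and with normexp background the STE7 difference was -0.017 (limma, adjusted p = 0.8). For CDC25 (0.11) the call was lost without scFv-112A replicate 2 or 3 or wild type replicate 3 and held in 16. For GPR1 (0.14) it was lost without scFv-112A replicate 1 or 4 or wild type replicate 3 and held in 19. For scFv-58F with scFv-112A, the PDE2 call did not hold without scFv-112A replicate 1, 2 or 3, scFv-58F replicate 1, 2 or 3 or wild type replicate 3 (p of 0.0517 to 0.101 after adjustment) and held in 14 alternatives. The MSS11 call was not made without scFv-112A replicate 1 or 3 or scFv-58F replicate 1 or 2 (p of 0.0549 to 0.0688 after adjustment) and held in 18 alternatives. The PHD1 call was lost without scFv-112A replicate 1 or 2 or scFv-58F replicate 1, 2 or 4 (p of 0.0663 to 0.0916 after adjustment) and held in 16 alternatives. The RME1 call did not hold without scFv-112A replicate 1 or scFv-58F replicate 3 (p of 0.0614 to 0.0622 after adjustment) and held in 20 alternatives. The HDA1 call was not made without scFv-112A replicate 1, 2 or 4, scFv-58F replicate 1, 2 or 3 or wild type replicate 2, 3 or 4 (p of 0.0516 to 0.136 after adjustment) and held in 7 alternatives. The HST1 call was lost without scFv-112A replicate 3 or 4 or scFv-58F replicate 1, 2 or 3 (p of 0.0606 to 0.0842 after adjustment) and held in 17 alternatives. The NRG2 call did not hold without scFv-112A replicate 1 or scFv-58F replicate 2 or 4 (p of 0.0533 to 0.0723 after adjustment) and held in 20 alternatives. The TUP1 call was not made without scFv-112A replicate 1, 3 or 4 or scFv-58F replicate 1, 2 or 3 (p of 0.0562 to 0.104 after adjustment) and held in 15 alternatives. Also counted above, the STE50 call (0.18) held in only 6 alternatives. It was lost without scFv-112A replicate 1, 2 or 4, any scFv-58F replicate or wild type replicate 2, 3 or 4. With normexp background the HDA1 difference between scFv-58F and scFv-112A shrank to 0.025 (adjusted p = 0.84) and that of PHD1 to 0.12 (0.171), and neither was called. In the deposited table the MSS11 difference between these groups was 0.12 and not called (0.188). The HDA1 call for scFv-112A with wild type was lost after quantile (0.116) and cyclic loess scaling (0.12). No call of a listed regulator changed sign in any alternative.

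**Figure D4:**
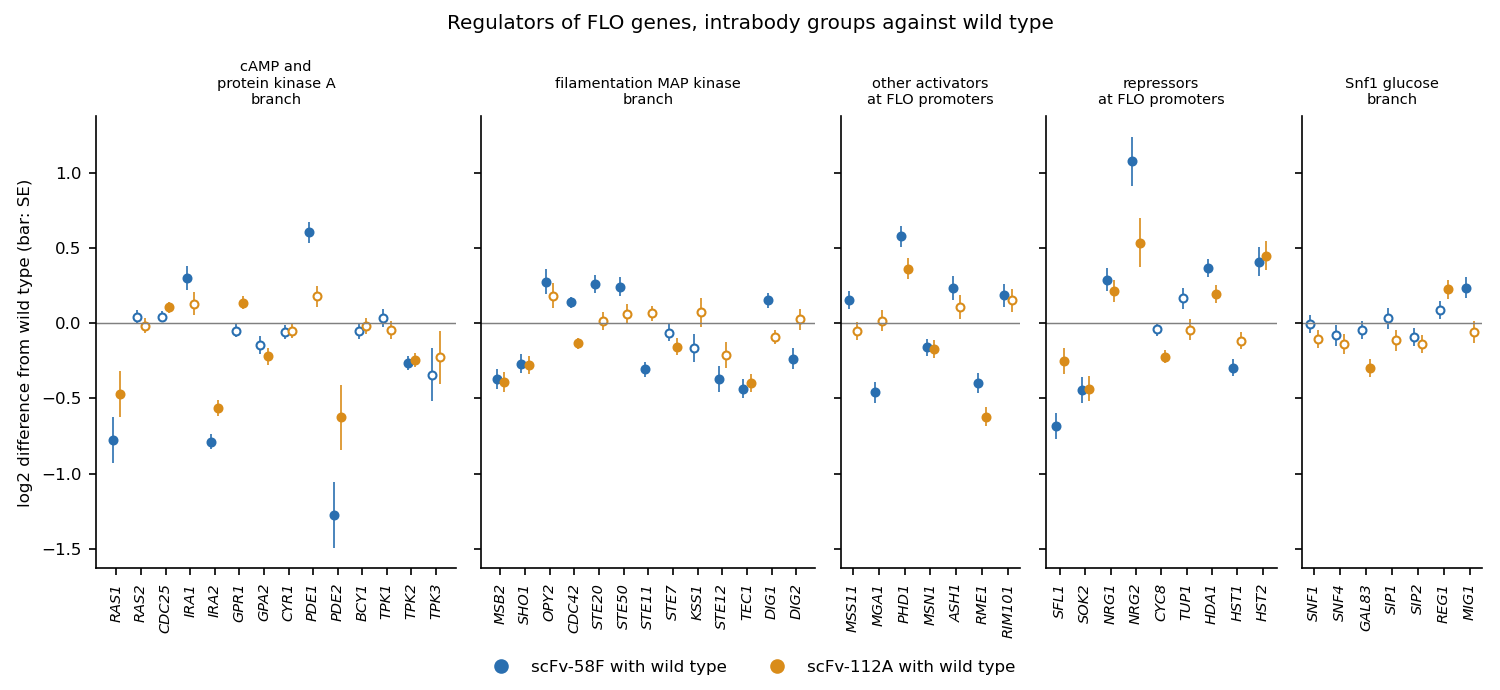
Log2 difference from wild type (vertical axis, bars are the SE) of 50 regulators of FLO genes in 5 lists, for scFv-58F (blue) and scFv-112A (orange); filled points are called at an adjusted p under 0.05. Calls lie on both sides of 0 in the first 4 lists for scFv-58F, with PDE2 (-1.28) lowest and NRG2 (1.08) highest.

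The genes nearest to each FLO gene in the order of the R64 annotation changed in both directions. Next to FLO10, SIR1, a silencing gene, was lower in scFv-58F than in wild type (-0.44 ± 0.05) and than in scFv-112A (-0.33 ± 0.05), while SKG1 beyond it was 0.36 ± 0.04 higher than in wild type. On the other side of FLO10, NFT1 was dim and had no called difference, and YKR104W was higher in scFv-112A than in wild type (0.29 ± 0.11, limma adjusted p = 0.0461) and lower in scFv-58F than in scFv-112A (-0.34 ± 0.11, adjusted p = 0.0336). The first YKR104W call was lost without scFv-112A replicate 1, 2 or 4, scFv-58F replicate 2 or 4 or any of wild type replicates 1 to 4, and the second without scFv-112A replicate 1 or 4 or scFv-58F replicate 2 or 3 (adjusted p = 0.0543 to 0.119 over both). Next to FLO9, GDH3, a glutamate dehydrogenase gene, was lower than in wild type in scFv-58F (-1.27 ± 0.09) and scFv-112A (-0.69 ± 0.09), and so was BDH2 (-0.65 ± 0.09 and -0.64 ± 0.09), while FLO9 was higher. YAL064W, before FLO9, differed from wild type by 0.32 ± 0.17 in scFv-58F and 0.41 ± 0.17 in scFv-112A with no call (adjusted p = 0.128 and 0.0678), and TDA8 beyond it was too dim to be tested, as were YAR064W and YAR066W after FLO1. SWH1, the nearest gene before FLO1 with a probe, had no called difference (0.038 ± 0.056 and -0.018 ± 0.056 from wild type), and YAT1, the next one, was lower (-0.95 ± 0.10 and -0.40 ± 0.10, the second not called with cyclic loess scaling, adjusted p = 0.0509).

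Around FLO5, which did not pass the test, 3 tested neighbours were called higher than wild type in both intrabody groups. Of all tested genes, 31.2% were called higher for scFv-58F with wild type and 22.8% for scFv-112A with wild type. YHR210C was 1.06 ± 0.12 higher in scFv-58F and 0.59 ± 0.12 higher in scFv-112A than in wild type, and CRG1 0.58 ± 0.07 and 0.42 ± 0.07. YHR213W, a short reading frame related to flocculin genes that lies beside FLO5, was 0.75 ± 0.14 higher in scFv-58F (limma, adjusted p = 0.000718) and 0.67 ± 0.14 higher in scFv-112A (adjusted p = 0.00257), with no overlap with wild type and no called difference between the intrabody groups (0.077 ± 0.142, adjusted p = 0.706). Of the 8 such reading frames listed, 3 have a probe, and YAL065C and YHR212W-A were well above background on too few arrays to be tested, 1 of 12 each.

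Beside FLO8, KAP123 was higher than in wild type by 0.38 ± 0.10 in scFv-58F and 0.58 ± 0.10 in scFv-112A, SWI4 by 0.50 ± 0.07 and 0.21 ± 0.07, and GLE2 was lower in scFv-58F (-0.19 ± 0.05). MAM1 was also lower in scFv-58F than in wild type (-0.37 ± 0.13, limma adjusted p = 0.0307), a call lost without scFv-58F replicate 3 or 4 or wild type replicate 1 or 4 (0.0517 to 0.0866) and with normexp background (0.0814). Beside FLO11, MRS1 was lower (-0.83 ± 0.05 and -0.41 ± 0.05), and YIR020C had no called difference (-0.0093 ± 0.0557 and -0.049 ± 0.056). MET28 was lower in scFv-58F than in wild type (-0.27 ± 0.09, limma adjusted p = 0.0179), a call lost without wild type replicate 3 (0.0535) or 4 (0.0519). YAP5 was higher in scFv-58F than in scFv-112A (0.20 ± 0.07, adjusted p = 0.0486), a call that held in 8 of 23 alternatives and was lost without scFv-112A replicate 1, 2 or 3, scFv-58F replicate 1, 2 or 3 or wild type replicate 3 or 4 (0.0583 to 0.122).

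**Figure D5:**
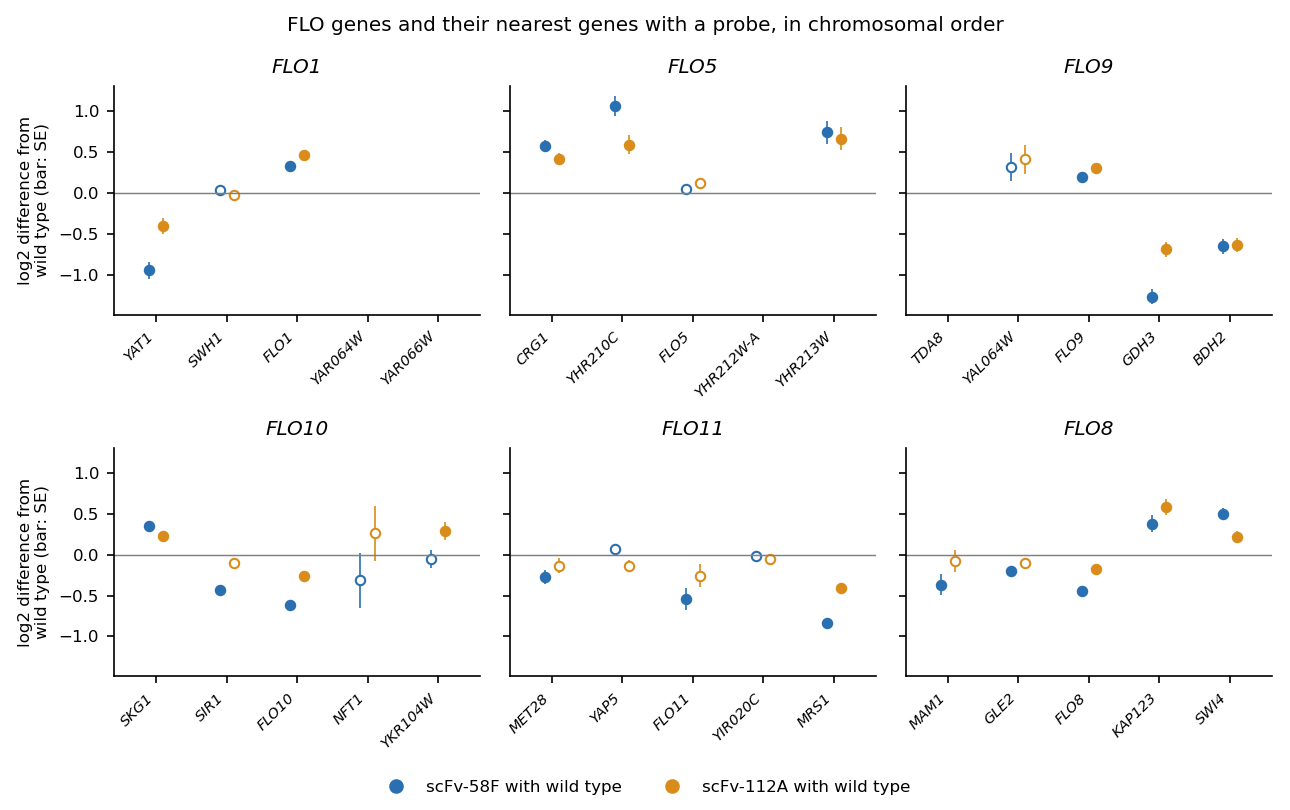
Log2 difference from wild type (vertical axis, bars are the SE) of each FLO gene, at the centre of its panel, and of the 2 nearest genes with a probe on either side in chromosomal order, for scFv-58F (blue) and scFv-112A (orange); filled points are called at an adjusted p under 0.05, and genes without points were too dim to be tested. Genes on either side of a FLO gene lie above and below 0, as around FLO9, where GDH3 was -1.27 and FLO9 0.20 in scFv-58F.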

How the data were processed

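RNA of 12 yeast samples was hybridised to 1 array each. The authors deposited Agilent Feature Extraction 10.7.3.1 output, which per the file headers gives each spot an intensity (Cy3, less local background and spatial trend) not scaled between arrays. The deposited table of log2 values (5297 probes; 5 of the 6 FLO genes, FLO11 not among them) was used as an alternative; its scale is not stated.

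Here log2 of the processed signal was taken without control spots and image outliers, each array's 75th percentile was subtracted, the 2 spots of a probe were averaged, and a gene with several probes took its brightest. Genes with a spot well above background on at least 4 of 12 arrays were tested, 5827 in all. Group means were fitted over all 12 arrays by lmFit and eBayes of limma 3.58.1 under R 4.3.3, 2-sided, p adjusted by Benjamini-Hochberg within a comparison, and the code was tested on simulated data. Intervals are 95%. The number of arrays limits precision.

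Names came from the R64 annotation (5748 of 6224 matched). The array design names build sacCer2, so no coordinates are given, and no sequences were used here. Named were all 6 genes, LEU2, up to 4 called genes per list and comparison, every tested activator, repressor, mating agglutinin and FLO-related frame, the 3 most alike genes and 2 neighbours per side; genes named outside this rule are marked in the text. The genes, lists and tests were chosen with earlier results of these data known.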

Additional observations from a re-analysis of the deposited data

How the results depend on the processing

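The 6 genes in 3 comparisons were recomputed under 11 other settings and on leaving out each of 12 arrays. Of 408 values, 391 kept direction and side of the threshold, 10 lost a call, 5 gained one and 2 reversed. The reversals were both in differences without a call: FLO11 between scFv-112A and wild type with normexp background (0.12), and FLO5 between scFv-58F and wild type without scFv-58F replicate 3 (-0.0018, where omissions ranged up to 0.079); the cause was not tested. With normexp background 1 FLO gene was called lower in scFv-112A than in wild type in place of 2. On leaving out an array, genes called ranged from 1357 to 2223 for scFv-58F with scFv-112A, from 3303 to 3716 for scFv-58F with wild type and from 2359 to 2847 for scFv-112A with wild type; FLO genes called ranged from 2 to 4, all lower, from 5 to 5 (2 higher and 3 lower) and from 4 to 5 (2 to 3 higher, 2 lower). With the replicate number as a block, 1676, 3551 and 2633 genes were called in place of 1871, 3625 and 2799, and the scFv-58F with scFv-112A call of FLO1 was lost (adjusted p = 0.0672); it changed no other call of these 6 genes. Same-numbered arrays of different groups correlated in their deviations from the group means by -0.17 to 0.19, over 0.1 in 5 of 12 pairs, and 4 of 12 arrays correlated best with their own number, so the numbers were not taken to pair arrays. Slide could not be fitted as a block, since each slide holds 1 group. FLO11 has no value in the deposited table and none with the filter on all arrays. Its signal, near background on 3 arrays, limits what can be said of it.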

Other observations

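Mating agglutinins are the other adhesins of budding yeast, binding cells of opposite mating type. AGA2, the binding subunit of a-agglutinin, was 0.39 ± 0.08 higher in scFv-112A than in wild type (limma, adjusted p = 0.00236), while FIG2, a mating adhesin gene, was lower there (-0.42 ± 0.10, adjusted p = 0.00423) and in scFv-58F (-0.33 ± 0.10, adjusted p = 0.0111). In scFv-58F AGA2 was 0.19 above wild type with no call, though 10 of 22 alternatives called it. The AGA2 difference between scFv-58F and scFv-112A was -0.19 and not called. AGA1, the anchor subunit, had no called difference (-0.18 ± 0.12 in scFv-58F and -0.0082 ± 0.1186 in scFv-112A, from wild type). SAG1, the alpha-agglutinin gene, was lower in scFv-58F than in scFv-112A (-0.14 ± 0.05), a call lost without scFv-112A replicate 1 or 2 or scFv-58F replicate 2, 3 or 4 (adjusted p = 0.0535 to 0.0996). Of the 4, 1 was lower in scFv-58F than in wild type, and in scFv-112A 1 was higher and 1 lower, beside 62.2% and 48% of all genes called.

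Genes of mating type a were present in all groups: MFA1, MFA2, STE2, STE6 and BAR1 were well above background on all 12 arrays. The alpha pheromone genes MF(ALPHA)1 and MF(ALPHA)2 were well above background on 0 and 3 of 12 arrays, and STE3, the receptor gene of alpha cells, was measured on all 12, 0.48 ± 0.06 higher in scFv-58F and 0.64 ± 0.06 higher in scFv-112A than in wild type (limma, adjusted p = 5.71e-05 and 1.92e-05). SAG1, the other alpha gene listed, was tested in all 23 alternatives, including the filter on all arrays. Its differences from wild type were -0.027 in scFv-58F and 0.11 in scFv-112A, neither called. Of the 5 a-type genes, 3 were higher in scFv-112A than in wild type, MFA1 (0.74 ± 0.16), MFA2 (0.64 ± 0.17) and STE6 (0.27 ± 0.10, a call lost without scFv-112A replicate 1, 2 or 4 or wild type replicate 1 or 2, adjusted p = 0.0501 to 0.102), and none was called lower. In scFv-58F 1 was higher than in wild type, MFA2 (0.53 ± 0.17), and 2 were lower, BAR1 (-0.37 ± 0.09) and STE2 (-0.23 ± 0.05). Of all tested genes, 22.8% were called higher and 25.2% lower for scFv-112A with wild type. For scFv-58F with wild type these shares were 31.2% and 31%.

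No sample stood apart from its group in any of the 6 FLO genes by Dixon's test at 4 arrays, in 18 groups checked.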
